A study of Mus musculus with 9 samples.

Results

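The mouse Rag1 and Rag2 genes lie side by side on chromosome 2, and the sites of CTCF and of the cohesin subunit Rad21 around them were taken as every ChIP-seq peak within 200 kb before or after the gene pair in the mm9 build. This span, chr2:101264875-101689658, held 82 of the 190262 peaks of 5 deposited peak lists. Overlapping peaks of any lists, with 1 bp or more in common, were joined into 39 sites, out of 83461 in the genome, and 36 of the 39 had Rad21 in at least 1 library (92.3%, against 55.2% in the genome). The sites were taken by position and not by any measured value, though earlier results of these data were known when the span was chosen.

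The 5 libraries came from RAG1-deficient C57BL/6 mice, and each antibody was used once per cell type. CTCF was profiled in pro-B cells of RAG1-/- bone marrow after 7 days of culture with the cytokine IL7, and in pre-B cells of RAG-/- bone marrow that carried a rearranged IgM (µ) transgene. Rad21 was profiled in the same kind of pre-B cells, in CD4-CD8- (DN) thymocytes of Rag1-/- mice, and in CD4+CD8+ (DP) thymocytes of Rag1-/- mice that carried a rearranged TCRb transgene. Marrow came from male and female mice of 6 to 14 weeks and thymus from mice of 4 to 8 weeks. The deficiency blocks differentiation, so the pre-B and DP cells exist only through their transgenes. Every library comes from cells that cannot make a functional recombinase. The paper reports that culture in IL7 brought pro-B cells closer to the pre-B state in CTCF binding and many other traits. What the Rag1 knockout allele removes is not given in the sources used here. Thymocyte CTCF was not analysed here, so B-lineage and thymocyte calls can be set side by side for Rad21 only. The lists hold peaks and no expression values, so that the labelled cell types could not be checked against marker genes.

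Rag1 and Rag2 encode the lymphocyte recombinase that cuts antigen receptor genes in V(D)J recombination, and both are switched on in pro-B and pre-B cells and in DN and DP thymocytes. Distal elements on the Rag2 side are known to control the pair. Among them are Erag, an enhancer used in B-lineage cells, the element D3, and the anti-silencer element (ASE), which works in thymocytes. CTCF is a zinc finger protein that binds a long directional motif, and cohesin is a ring complex that extrudes chromatin loops and is often halted at CTCF. Cohesin is also found at active enhancers and promoters without CTCF.

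In the annotation used, Rag2 ran from 101464875 to 101472685 on the plus strand and Rag1 from 101478439 to 101489658 on the minus strand, so the genes point toward each other and their starts are on the outside. The less studied gene B230118H07Rik, on the minus strand from 101400938 to 101489689, spans both. Traf6, which encodes a signalling adaptor, starts at 101518586 on the Rag1 side and is followed by Prr5l. Distances below are from the middle of a merged site to a gene start, and upstream means away from the gene's body. The exact mm9 edges of the known elements are in none of the files, so each was searched 5 kb to either side of a nominal place, at 8 kb for D3, 22 kb for Erag and 73 kb for ASE upstream of the Rag2 start. A promoter was taken as 2 kb to either side of a start.

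The sequences below are those of the sites the account turns on, read from the mm9 reference and written 5′ to 3′. The first set holds the central 300 bases of the 3 DP Rad21 peaks that scored above 90% of their list and had no overlapping CTCF or Rad21 peak in the B lineage. They are chr2:101391532-101391831 and chr2:101392690-101392989, both at the ASE place, and chr2:101448611-101448910, all on the plus strand. Beside them stand the bases before the Rag2 start, chr2:101464625-101464874 on the plus strand, and before the Rag1 start, chr2:101489690-101489908 on the minus strand, with annotated exons left out. Capitals mark short cores searched on both strands, or their reverse complements. The core of Runx sites was TGTGGT. E-boxes, bound by E proteins, were searched as CAGCTG or, in the other form, as CAGGTG. The core of GATA factors was AGATAA. That of Ikaros was TGGGAA. No form of one core overlaps another in the sequences printed.
DP Rad21 peak, 73.2 kb upstream of Rag2: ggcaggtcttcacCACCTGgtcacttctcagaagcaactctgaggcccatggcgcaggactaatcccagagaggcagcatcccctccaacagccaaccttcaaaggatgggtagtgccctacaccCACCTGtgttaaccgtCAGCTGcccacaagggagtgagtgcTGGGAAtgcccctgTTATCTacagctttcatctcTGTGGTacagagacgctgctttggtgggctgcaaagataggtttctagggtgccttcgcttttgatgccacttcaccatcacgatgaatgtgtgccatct
DP Rad21 peak, 72.0 kb upstream of Rag2: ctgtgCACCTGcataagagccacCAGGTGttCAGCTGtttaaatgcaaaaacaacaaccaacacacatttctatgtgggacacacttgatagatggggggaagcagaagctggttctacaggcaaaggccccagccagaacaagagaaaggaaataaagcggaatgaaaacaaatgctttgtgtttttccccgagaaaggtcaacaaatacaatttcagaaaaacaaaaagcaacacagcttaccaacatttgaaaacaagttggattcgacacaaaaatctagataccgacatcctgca
DP Rad21 peak, 16.1 kb upstream of Rag2: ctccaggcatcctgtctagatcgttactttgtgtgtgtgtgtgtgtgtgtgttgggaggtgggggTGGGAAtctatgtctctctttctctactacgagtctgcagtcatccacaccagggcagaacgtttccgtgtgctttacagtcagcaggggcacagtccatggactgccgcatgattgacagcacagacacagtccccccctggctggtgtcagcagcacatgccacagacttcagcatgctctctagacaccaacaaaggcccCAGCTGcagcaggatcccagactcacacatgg
Rag2 promoter: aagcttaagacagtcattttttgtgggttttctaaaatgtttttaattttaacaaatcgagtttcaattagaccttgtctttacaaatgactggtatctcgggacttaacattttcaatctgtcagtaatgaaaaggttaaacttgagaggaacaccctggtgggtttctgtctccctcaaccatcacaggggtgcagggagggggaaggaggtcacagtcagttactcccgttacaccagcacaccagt
Rag1 promoter: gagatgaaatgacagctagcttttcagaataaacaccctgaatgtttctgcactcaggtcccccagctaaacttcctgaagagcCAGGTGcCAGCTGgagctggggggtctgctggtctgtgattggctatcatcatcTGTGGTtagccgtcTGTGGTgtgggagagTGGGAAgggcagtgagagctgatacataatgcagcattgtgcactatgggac

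The second set holds 12-base matches, in capitals, to the CTCF consensus of the study's motif supplement in pre-B CTCF peaks, each with 14 bases to either side and each printed along the strand of its match. They are shown because their strand gives the direction of the motif around the genes. The first 3 are chr2:101313122-101313161, chr2:101366502-101366541 and chr2:101384005-101384044, on the plus strand and upstream of Rag2. The last 3 are chr2:101437507-101437546, between the ASE place and Rag2, and chr2:101493197-101493236 and chr2:101505604-101505643, upstream of Rag1, all on the minus strand.
CTCF site, 152 kb upstream of Rag2: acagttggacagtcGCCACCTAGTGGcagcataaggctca
CTCF site, 98.7 kb upstream of Rag2: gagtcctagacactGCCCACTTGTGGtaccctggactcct
CTCF site, 80.8 kb upstream of Rag2: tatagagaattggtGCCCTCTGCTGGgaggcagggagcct
CTCF site, 27.3 kb upstream of Rag2: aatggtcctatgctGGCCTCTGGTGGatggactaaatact
CTCF site, 3.41 kb upstream of Rag1: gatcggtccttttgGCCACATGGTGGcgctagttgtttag
CTCF site, 16.0 kb upstream of Rag1: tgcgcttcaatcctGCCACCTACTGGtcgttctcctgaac

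The DP library had the most peaks around the genes. It called 31 Rad21 peaks there, against 15 in pre-B cells and 4 in DN thymocytes, while CTCF had 15 peaks in pre-B cells and 17 in cultured pro-B cells. The lists differ in length, with 36743 Rad21 peaks in DP, 30488 in pre-B and 9701 in DN cells, and 42250 pre-B CTCF peaks against 71080 in the pro-B culture. Set against chromosomes 1 to 19 and X, the density of DP Rad21 peaks in the span was 73 per Mb against 13.9, a ratio of 5.24. The same ratio was 3.06 for pre-B Rad21, 2.56 for DN Rad21, 2.21 for pre-B CTCF and 1.49 for IL7-cultured pro-B CTCF.

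How strong a peak was can be judged only within its own list, because the MACS score that the authors deposited grows with depth, and how many reads each list rests on is unknown. Each peak is therefore described by the percentage of its list that scored below it. The lists also end at different scores, from 50 in IL7-cultured pro-B cells to 86.45 in DN thymocytes, so a site without a peak was not called rather than shown to be unbound. With 1 library per condition variation among animals cannot be measured and conditions were not tested against each other. Intervals below are exact Clopper-Pearson 95% intervals and cover counting error only. They treat peaks and sites as independent, although many DP peaks of the span stood close together, so they can be too narrow.

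**Figure D1:**
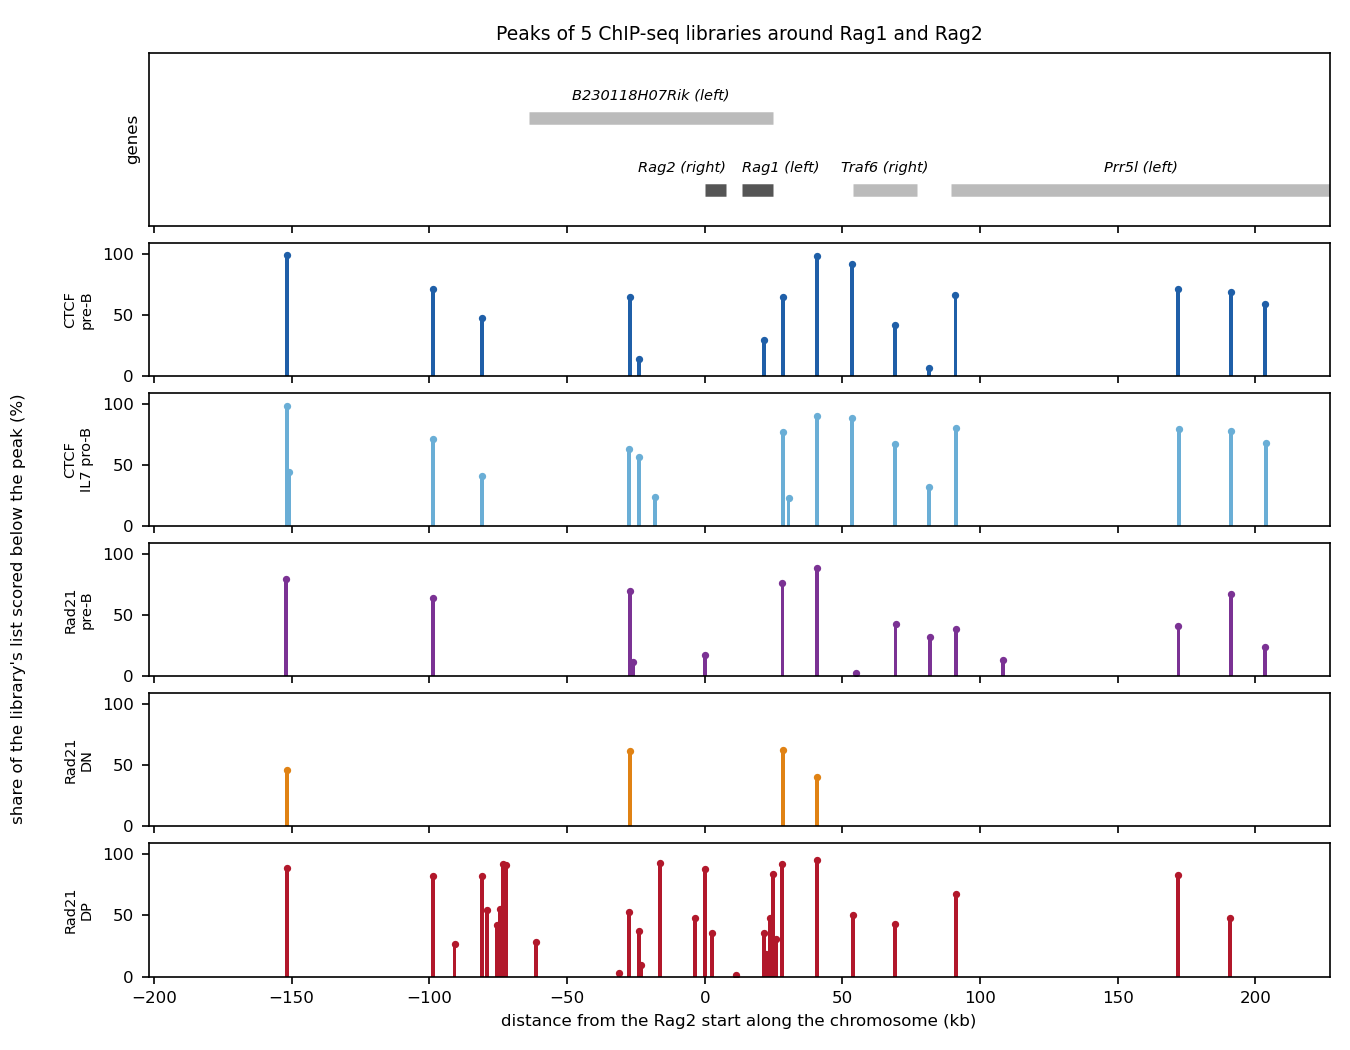
The horizontal axis is the distance from the Rag2 start in kb along the chromosome, and the height of each bar is the percentage of the library's own list that scored below that peak. Of the 5 rows the lowest, with 31 DP Rad21 peaks, is the fullest and the DN row, with 4, the emptiest, and the words left and right give the direction of each gene.

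Of the CTCF and cohesin sites, 4 were called in every library, and all 4 DN Rad21 peaks of the span lay at them. Sites with a peak in all 5 libraries made up 10.3% of the 39, and 10.3% of merged sites in the genome. In lists of equal length 3 of them kept all 5 calls, and the site 27.3 kb upstream of Rag2 lost that of DP Rad21. The outermost, 152 kb upstream of Rag2 at 101312615 to 101313574, was among the strongest of both CTCF lists. For CTCF it exceeded 98.6% of peaks in pre-B cells and 98.4% in the culture. For Rad21 it exceeded 88.4% of peaks in DP thymocytes, 79.5% in pre-B cells and 46.1% in DN thymocytes, whose list is the shortest. The next lay 27.3 kb upstream of Rag2 at 101437220 to 101437948 and was of middle rank everywhere, above 64.6% and 63.4% of the CTCF lists and 69.3%, 62.0% and 52.8% of the pre-B, DN and DP Rad21 lists.

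The other two stood on the Rag1 side. The nearer, 3.41 kb upstream of Rag1 at 101492382 to 101493746, scored above 64.2% and 77.1% of the pre-B and IL7-cultured pro-B CTCF lists. For Rad21 it ranked above 91.9% of DP peaks, 76.3% of those of pre-B cells and 62.5% of those of DN thymocytes. The farther, 16.0 kb upstream of Rag1 at 101505244 to 101506118, was high for CTCF in pre-B cells, above 97.9% of the list, and above 90.3% in IL7-cultured pro-B cells. Its Rad21 peak stood above 95.1% of the DP list, the highest DP rank in the span. It stood above 88.2% of the pre-B list and 40.0% of the shorter DN list.

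Between the site 27.3 kb upstream of Rag2 and the site 3.41 kb upstream of Rag1 lay 54.4 kb that held both genes and both promoters. In those 54433 bp there were 14 further sites, and 12 of them had DP Rad21, 2 pre-B Rad21 and 0 DN Rad21, while each CTCF library called 2. Over all merged sites of the genome the shares were 43.3% for DP Rad21, 36.0% for pre-B Rad21, 11.5% for DN Rad21, 50.1% for pre-B CTCF and 82.9% for CTCF of the culture, in lists that differ in length. The bounding sites, called in all 5 libraries, were left out of the stretches but are part of the genome shares. Every DN peak of the span lies at such a site, so a DN count of 0 followed from the bounds. The 124 kb on the far side of the 27.3-kb site, up to the outermost site, had 11 sites with DP Rad21 at 10, pre-B Rad21 at 1 and DN Rad21 at 0. Beyond the site 16.0 kb upstream of Rag1, where Traf6 and Prr5l lie, 8 of 9 sites had pre-B Rad21 and 5 had DP Rad21, and both CTCF libraries called 7. The larger pre-B count there did not hold at stricter limits: with scores of at least 100 pre-B and DP Rad21 were each left at 5 of these sites, and in lists of equal length at 0 and 1. In the 54.4 kb with both genes, DP Rad21 was left at 8 sites with scores of at least 100 and at 3 in lists of equal length, and pre-B Rad21 at 0 in each case. In the 124 kb beyond, DP Rad21 was left at 7 and 4 sites and pre-B Rad21 at 1 and 0. These counts are of the sites merged from the full lists, and genome shares at the stricter limits were not counted for single libraries.

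Many Rad21 sites of the locus were called in DP thymocytes and not in pre-B cells. Of the 36 Rad21 sites, 21 were called in DP thymocytes only, which is 58.3% (interval 40.8 to 74.5%), against 33.5% of all Rad21 sites. With peaks up to 500 bp apart joined into a site, 14 of 29 Rad21 sites were DP only (48.3%, interval 29.4 to 67.5%), against 31.4%. Another 6 sites (16.7%, against 25.2%) were called in pre-B and DP but not in DN cells, 5 (13.9%, against 20.4%) in pre-B cells only, and 4 (11.1%, against 18.8%) in all 3. When all 3 Rad21 lists were held to 9701 peaks, 8 of the 12 Rad21 sites left in the span were DP only, against 15.6% of such sites in the genome, 3 were in all 3 lists, against 33.3%, and 0 were pre-B only, against 14.7%. In the same lists 5 of the 12 were DP only without B-lineage CTCF, against 6.45%. With scores of at least 100 instead, 15 of 25 were DP only, against 28.9%, 1 was pre-B only, against 22.1%, 4 were in all 3 lists, against 21.8%, and 11 were DP only without B-lineage CTCF, against 18.7%.

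**Figure D2:**
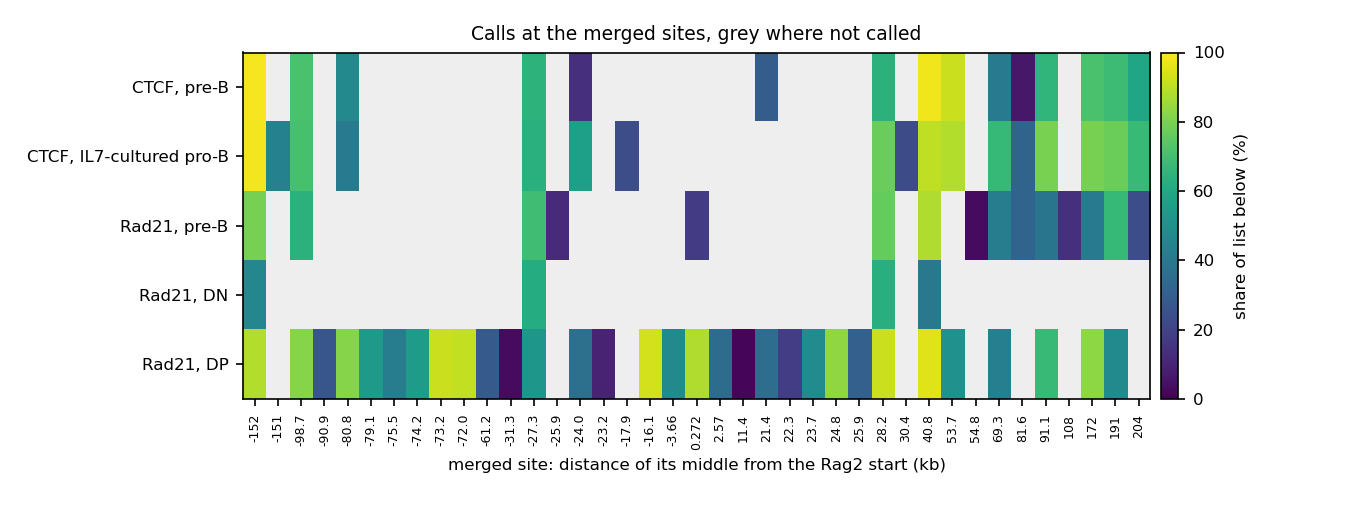
Each column is one of the 39 merged sites, ordered along the chromosome and named by the distance of its middle from the Rag2 start in kb, each row is a library, and colour gives the percentage of the library's list that scored below the peak, with grey where no peak was called. The DP row is filled across the left and middle columns where the other rows are mostly grey, and the rows fill together at the 4 sites called in all 5 libraries.

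Most of the DP-only sites also lacked CTCF in the B lineage. Of the 21, 17 had no CTCF peak in either B-lineage library, which is 47.2% of the Rad21 sites (interval 30.4 to 64.5%) against 22.2% in the genome. Most DP-only sites of the genome lacked it as well, 10244 of 15431. These 17 lay between 90.9 kb upstream of Rag2 and 1.1 kb upstream of Rag1, and none was on the Traf6 and Prr5l side. Of the 5 pre-B-only sites, 3 lacked CTCF as well (8.33%, against 3.04%), and the 4 remaining DP-only sites had B-lineage CTCF (11.1%, against 11.3%). Counted as peaks, 54.8% of the 31 DP peaks overlapped neither B-lineage CTCF nor pre-B Rad21, against 28.2% of the DP list. In the genome such peaks were mostly weak, with 5.35% of them scoring above 75% of the DP list, and around Rag1 and Rag2 4 of the 17 did so. Those 4 were a pair at the ASE place, the peak 16.1 kb upstream of Rag2 and the peak on the Rag1 start.

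CTCF was called in either B-lineage library at 18 of the 39 sites, 46.2% against 84.9% of merged sites in the genome. The 2 CTCF libraries called mostly the same sites: 14 of the 15 pre-B peaks (93.3%) overlapped a peak of IL7-cultured pro-B cells, against 96.0% of the list, and 14 of 17 the other way (82.4%, against 58.6%). A single site, in the Rag1 intron, was called for CTCF in pre-B cells and not in the culture (2.56%, against 1.95% of merged sites). The culture had 3 sites that were not called in pre-B cells, at 151 kb and 17.9 kb upstream of Rag2 and 5.65 kb upstream of Rag1, which is 7.69% of the sites against 34.8% in the genome, and none of these had Rad21 in any library. No other CTCF site of the locus lacked Rad21, while 44.8% of merged sites in the genome had CTCF and no Rad21. With scores of at least 100 such sites numbered 2 of 27, against 47.3%, and in lists of equal length 9 of 21, against 69.1%.

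In pre-B cells, where both proteins were profiled in the same kind of cell against 1 shared input, 11 of the 15 CTCF peaks (73.3%, interval 44.9 to 92.2%) overlapped Rad21, against 63.5% of the list, and with scores of at least 100 this was 9 of 13, against 59.1%, and in lists of equal length 4 of 15 (26.7%), against 23.2%. Likewise 11 of the 15 Rad21 peaks overlapped CTCF, against 88.1% of the list. DP Rad21 overlapped 13 of the 15 pre-B CTCF peaks (86.7%, interval 59.5 to 98.3%, against 52.0%), while 13 of the 31 DP peaks overlapped pre-B CTCF (41.9%, against 60.3%) and 12 overlapped CTCF of the culture (38.7%, against 67.9%). In lists of equal length several of the DP calls at pre-B CTCF peaks were lost. The peaks that pre-B and DP Rad21 shared numbered 10, or 66.7% of the pre-B peaks, against 67.3% of that list, and 32.3% of the DP peaks (interval 16.7 to 51.4%), against 56.3%. As merged sites they were 27.8% of the Rad21 sites, against 44.0%. All 4 DN peaks overlapped both pre-B and DP Rad21, which 93.9% and 94.5% of the whole DN list did respectively, while 12.9% of the DP peaks overlapped DN Rad21, against 24.9%.

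**Figure D3:**
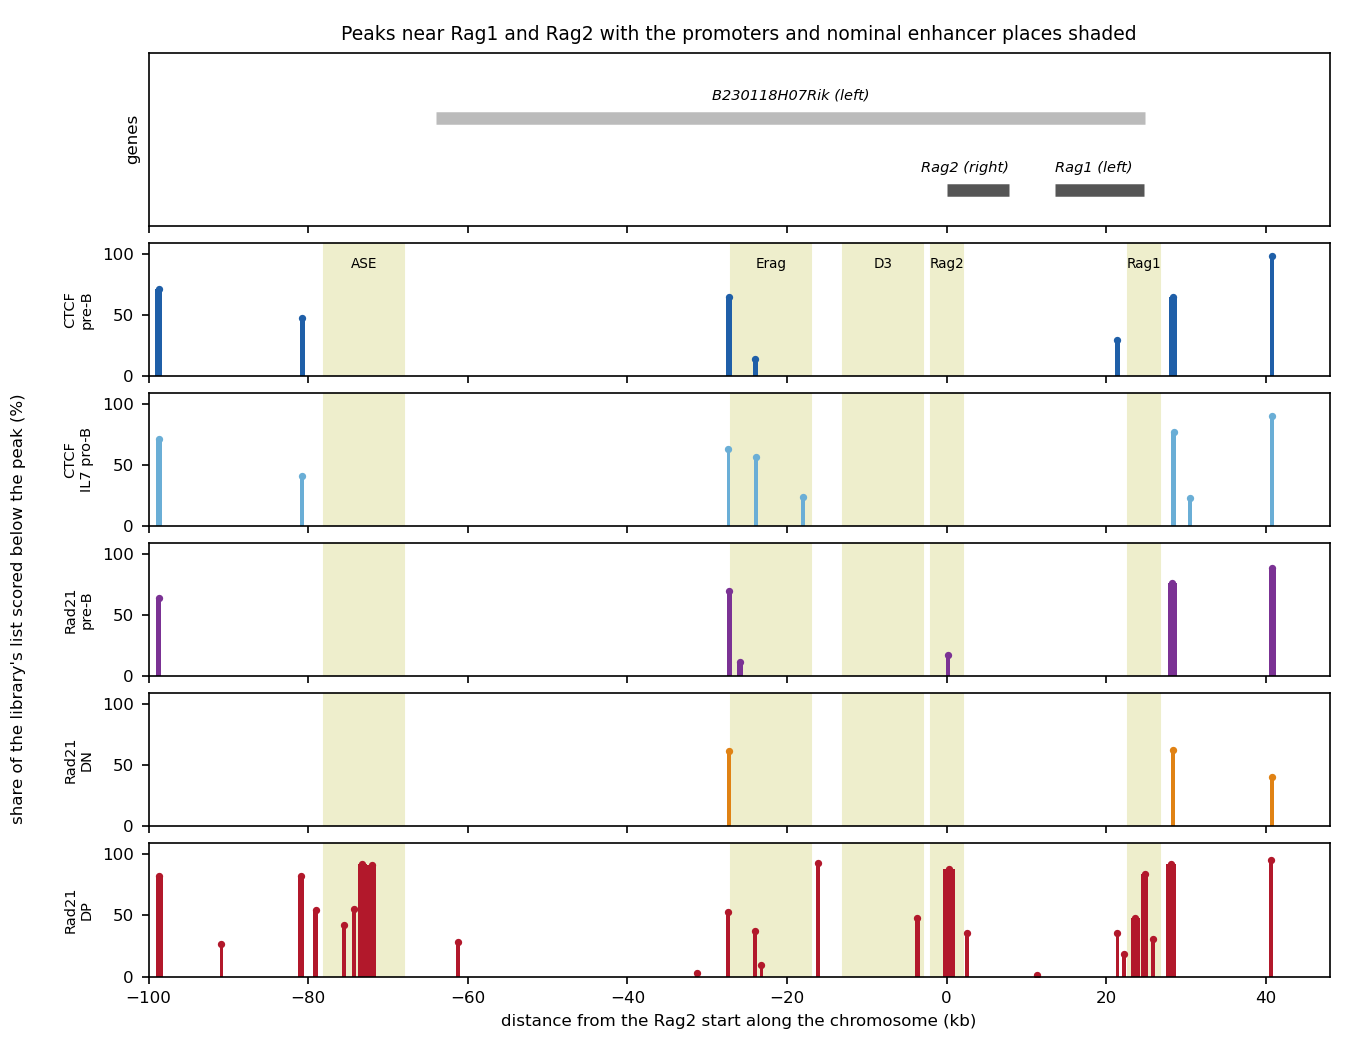
The horizontal axis is the distance from the Rag2 start in kb, the height of each bar is the percentage of the library's own list that scored below the peak, and shading marks the promoters and the nominal places of ASE, Erag and D3. At ASE, D3 and the Rag1 start, at the widths shaded, the DP row alone has peaks, and at the Rag2 start pre-B and DP Rad21 do, while the D3 peak and the pre-B peak at the Rag2 start are lost in lists of equal length.

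The ASE place held Rad21 in DP thymocytes and no peak of any other library. Its 4 DP peaks lay 75.5, 74.2, 73.2 and 72.0 kb upstream of Rag2 and scored above 42.2%, 54.9%, 91.9% and 90.8% of the DP list. In lists of equal length the latter 2 were left. The stronger pair, at 101391155 to 101392209 and 101392260 to 101393421, ranked 2984 and 3362 of 36743, are the first of the sequences printed above, and measured 1055 and 1162 bp, against a median width of 538 bp in the list. Both lie outside any annotated gene. The peak 73.2 kb upstream carried 2 CAGGTG and 1 CAGCTG, together with 1 TGGGAA, 1 AGATAA and 1 TGTGGT in its central 300 bases, and the peak 72.0 kb upstream carried 2 CAGGTG and 1 CAGCTG.

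Just outside the ASE place, farther from Rag2, a DP peak lay 79.1 kb upstream (above 54.1% of the list) and a CTCF site 80.8 kb upstream. At that CTCF site pre-B CTCF scored above 47.0% of its list, CTCF of the culture above 40.9% and DP Rad21 above 81.8%, and pre-B and DN Rad21 were not called. It is the closest CTCF call on that side of the ASE place, and the next, 98.7 kb upstream of Rag2, had CTCF in both libraries (above 71.3% and 70.8%) and Rad21 in pre-B (64.3%) and DP cells (82.0%). A weaker DP peak stood 90.9 kb upstream of Rag2 (above 26.9%), and further ones lay 61.2 kb (28.4%) and 31.3 kb upstream (3.0%), in introns of B230118H07Rik. These 3 and the peak 79.1 kb upstream were lost in lists of equal length.

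Around Erag, the enhancer of the B lineage, the calls differed between libraries, and the site 27.3 kb upstream of Rag2 overlaps the edge of the place searched. A Rad21 peak called in pre-B cells alone lay 25.9 kb upstream of Rag2, at 101438603 to 101439401, and scored above 12% of its list. It was lost both at scores of at least 100 and in lists of equal length. A site 24.0 kb upstream had CTCF above 13.5% of the pre-B list and 56.6% of the culture's, and Rad21 in DP cells alone, above 37.0%. DP Rad21 had a further weak peak 23.2 kb upstream (above 9.62%), and the culture a CTCF peak 17.9 kb upstream (23.7%). Both were lost at scores of at least 100, and no DP Rad21 peak at the Erag place was left in lists of equal length. The DN Rad21 peak of the 27.3-kb site, at 101437426 to 101437838, ended just short of the place searched, which began at 101437875, and DN Rad21 had no peak within it.

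The highest-ranked DP peak without a counterpart in the other libraries lay 16.1 kb upstream of Rag2, between Erag and D3, at 101448465 to 101449058 in an intron of B230118H07Rik. It ranked 2518 of the DP list and scored above 93.1% of it. Neither CTCF library, pre-B Rad21 nor DN Rad21 had a peak there. Its central 300 bases, the third sequence above, held 1 TGGGAA and 1 CAGCTG. The D3 place held a single peak, DP Rad21 at 101460883 to 101461555, 3.66 kb upstream of Rag2 and above 47.6% of the list, and it sits near the edge of the place searched. The call was lost in lists of equal length and with a narrower place, and with a place 2 times as wide 3 libraries had a peak.

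At the Rag2 promoter Rad21 was called in pre-B cells and DP thymocytes, and CTCF in neither B-lineage library. The DP peak, at 101464427 to 101465867, covered the start and the first exon, ranked 4434, above 87.9% of the list, and was 1441 bp wide, the widest DP peak of the span. The pre-B peak, at 101464759 to 101465284, covered the start too but scored above 17.5% of the pre-B list, and it was no longer called at scores of at least 100 or in lists of equal length. Among 22350 protein-coding gene starts, 20.3% had a pre-B Rad21 peak and 32.5% a DP Rad21 peak within 2 kb, and 1.41% had both with no B-lineage CTCF, as the Rag2 start did. CTCF lay within 2 kb of 27.1% of gene starts in pre-B cells and 40.0% in the culture, and DN Rad21 within 2 kb of 4.39%, and none of the 3 was called that near either Rag start. None of the 5 cores searched was found in the 250 bases before the Rag2 start. A DP peak 2.57 kb downstream lay in the Rag2 intron (above 35.2%).

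At the Rag1 promoter DP Rad21 was the only call, with 3 peaks within 2 kb of the start. The one on the start, at 101489282 to 101490140, ranked 6102 and scored above 83.4% of the list. Those beside it lay 1.13 kb inside the gene (above 48.1%) and 1.1 kb upstream (above 30.7%), and both were lost in lists of equal length, where the peak on the start was kept. Within a span 2 times as wide, which takes in the site 3.41 kb upstream, all 5 libraries had a peak. Of all gene starts, 16.5% had DP Rad21 and no pre-B Rad21 within 2 kb, and 8.33% had DP Rad21 and no B-lineage CTCF. Rag1 and B230118H07Rik start so close together that the peak on the start cannot be assigned to either. In the 219 bases printed, the Rag1 promoter carried 1 CAGGTG, 1 CAGCTG, 2 TGTGGT and 1 TGGGAA.

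The cores are short and common, and the matches describe these letters only. Over the central 300 bases of all 36743 DP Rad21 peaks, CAGGTG was found in 29.6%, CAGCTG in 20.9%, TGTGGT in 24.0%, TGGGAA in 24.9% and AGATAA in 10.9%. In the 250 bases before the 22350 gene starts the shares were 17.0%, 11.8%, 12.7%, 21.0% and 9.29%.

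Inside Rag1, an intron site 3.39 kb from its start, at 101485946 to 101486586, had CTCF in pre-B cells (above 29.6% of the list) and Rad21 in DP thymocytes (35.7%), and it is the only CTCF call between the 2 gene starts. A DP peak lay 2.53 kb from the Rag1 start (above 18.0%), and another between the ends of the 2 genes, 11.4 kb from the Rag2 start, was among the weakest of its list (above 1.20%). All the DP peaks between the gene starts, other than those at the starts themselves, were lost in lists of equal length. No library had a peak over the large Rag1 exon, 101478439 to 101484966, or over the last Rag2 exon, 101469479 to 101472685, which hold the coding sequence. For the Rag1 exon this cannot be told apart from sequence missing in the knockout.

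DP peaks also stood close together, most of all at the Rag1 start. Up to 6 DP Rad21 peaks fell within 5 kb to either side of a single peak there, a crowding that 0.302% of the DP list reached (111 peaks). At least 4 peaks, itself included, surrounded 12 of the 31 DP peaks of the span, against 3.98% of the list. They lay not at the Rag1 start alone. Those 72.0 to 79.1 kb upstream of Rag2 had 4 or 5, and that of the 27.3-kb site had 4. With scores of at least 100, 7 of 24 DP peaks had that many, against 1.47% of the list, and in lists of equal length 0 of 11 did, against 0.165%. In the other libraries none of the peaks around Rag1 and Rag2 reached 4, a number that 1.5% of the pre-B CTCF list, 4.74% of the culture's, 1.20% of the pre-B Rad21 list and 0.0103% of the DN list reached. The measure and its limits were chosen after the positions had been seen.

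**Figure D4:**
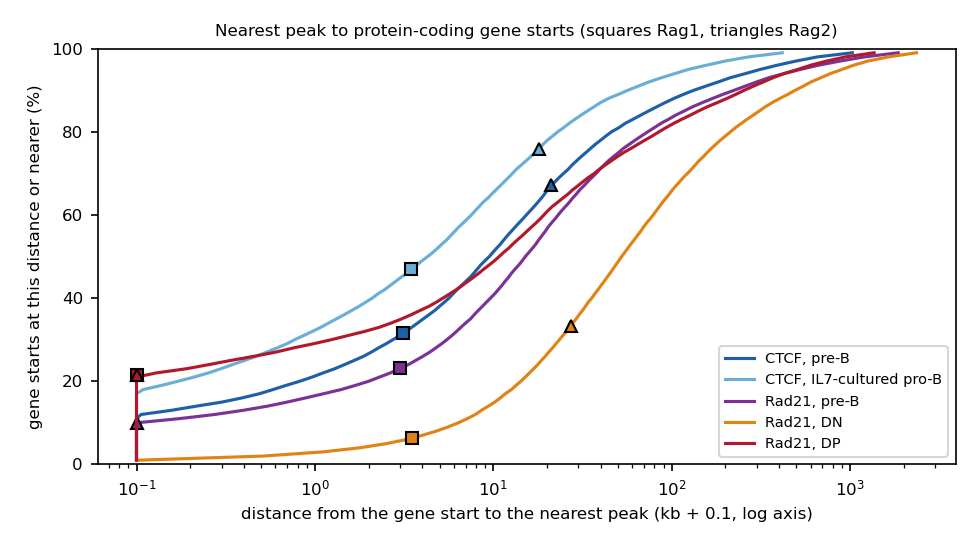
For each library a curve gives the percentage of 22350 protein-coding gene starts whose nearest peak lies at a given distance or nearer, on a log axis of kb with 0.1 added. Squares mark Rag1 and triangles Rag2, and the 2 symbols of DP Rad21 fall together at a distance of 0.

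Measured from peak edge to gene start, the 2 promoters differed in how near CTCF came. The nearest CTCF peak was 3.02 kb from the Rag1 start in pre-B cells and 3.38 kb in the culture, and 21.1 and 17.9 kb from the Rag2 start. In pre-B cells 68.5% of gene starts were farther from CTCF than Rag1, and 32.9% farther than Rag2, and in the culture 53.1% and 24.1% were. The nearest DN Rad21 peak was 3.40 kb from the Rag1 start and 27.0 kb from the Rag2 start, where 93.7% and 66.8% of gene starts were farther. Pre-B Rad21 reached the Rag2 start itself and came to 2.90 kb of Rag1, where 90% and 76.9% of gene starts were farther, and DP Rad21 covered both starts, as it did not at 78.6% of gene starts.

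CTCF motifs pointing in both directions were found on either side of the genes. The consensus is written as the reverse complement of the form in which the CTCF motif is usually read, so plus-strand matches were read as pointing toward lower coordinates and minus-strand matches toward higher ones. The directions below rest on that reading. The matches 152, 98.7 and 80.8 kb upstream of Rag2 were on the plus strand and so pointed away from the genes. The matches 27.3 kb upstream of Rag2 and 3.41 and 16.0 kb upstream of Rag1 were on the minus strand, so that the first pointed toward the genes and the other two away from them. None of the CTCF peaks inside the 54.4 kb with both genes held a match. Farther on the Rag1 side, the match at the site in a Traf6 exon 69.3 kb from the Rag2 start pointed to higher coordinates and those 191 and 204 kb from the Rag2 start to lower ones.

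At least 1 match with up to 2 mismatches was present in 10 of the 15 pre-B CTCF peaks (66.7%, interval 38.4 to 88.2%), against 48.3% of the list and 8.96% of sequence 2 kb away. In the culture it was present in 10 of 17 peaks (58.8%, interval 32.9 to 81.6%), against 39.0% of the list and 5.97% of neighbouring sequence. The site 91.1 kb from the Rag2 start had equally good matches on both strands in its pre-B peak, and the match in the culture's peak was on the minus strand, toward higher coordinates.

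On the Traf6 and Prr5l side, 7 of the 9 sites beyond 16.0 kb had both CTCF and Rad21, against 40.1% of merged sites. In lists of equal length 1 of the 7 kept both, a limit at which no genome share was counted. At the Traf6 start, 28.9 kb upstream of Rag1, CTCF scored above 91.8% and 88.6% of the pre-B and IL7-cultured pro-B lists, with DP Rad21 above 50.4% and no pre-B Rad21 on the site. The pre-B Rad21 peak closest to it, in the Traf6 intron, was above 2.79% of its list. Sites with CTCF in both libraries and Rad21 in pre-B and DP cells lay 69.3, 91.1, 172 and 191 kb from the Rag2 start, and their DP Rad21 peaks scored above 43.3%, 67.2%, 83.2% and 47.5% of the list. At 81.6 and 204 kb CTCF was joined by pre-B Rad21 only, above 32.4% and 23.5% of that list, and at 108 kb pre-B Rad21 was alone (13.4%).

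**Figure D5:**
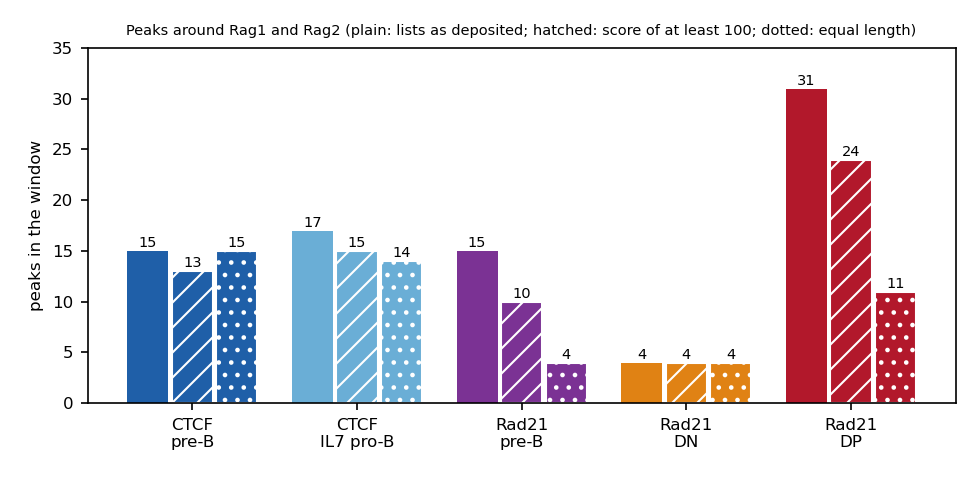
Bars give the number of peaks in the span for each library, with the lists as deposited (plain), with scores of at least 100 (hatched), and with the 2 CTCF lists and the 3 Rad21 lists each held to equal length (dotted). DP Rad21 has 31, 24 and 11 peaks and stays above pre-B Rad21, with 15, 10 and 4, and DN Rad21, with 4 in each.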

How the data were processed

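Peaks of 5 ChIP-seq libraries were used, and 4 input libraries served the authors as controls. As the methods state, the authors aligned reads to mm9 with Bowtie and retained reads with up to 3 mapped positions. The Bowtie version was 0.12.9 in the submitters' processing notes, and the paper gives another. Peaks were called with MACS 1.4.2 against the input of the same cells. Each deposited list gives peak positions and the MACS score, which follows the p-value against input. Reads that map to several places can add peaks in repeated sequence. The depth behind the lists is unknown.

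Peaks with 1 bp or more in the span were kept. Overlaps, merged sites, distances and ranks within a list were computed in Python 3.11.15 with numpy 2.4.6 and scipy 1.17.1, sequences were read with pysam 0.24.0, samtools 1.23.1 indexed the genome, and matplotlib 3.10.9 drew the plots. Gene models are those of the annotation supplied for mm9. Both strands of each CTCF peak were compared with the study's 12-base consensus, allowing 2 mismatches and giving no direction where the strands tied. The methods were tested on simulated data. No test between conditions was run, since each has 1 library. The genes named are Rag1, Rag2 and those overlapping the span. Sites described in full are those flanking the genes, those between them, the highest of each list, and those where pre-B and DP Rad21 calls differ. The span, the elements and the comparisons were chosen with earlier results of these data known, and the short cores and the crowding of peaks after the positions had been seen. Alternatives were scores of at least 100, lists of equal length, midpoints in place of edges, 50% overlap, sites merged across 500 bp, spans of 100 and 300 kb, other widths for promoters and elements, and other motif limits.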

Additional observations from a re-analysis of the deposited data

How the results depend on the processing

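Of 130 values recomputed under an alternative, 104 stayed within their limit and 26 moved. The limit was wide, so staying within it does not mean unchanged. Merged sites that fell from 39 to 27 at scores of at least 100 counted as staying. So did DP-only sites that fell from 21 to 14 when merged across 500 bp. Of the 26 that moved, 2 were chosen after the data had been seen. The DP Rad21 peaks with at least 4 within 5 kb to either side numbered 7 at scores of at least 100 and 0 in lists of equal length. With lists of equal length, pre-B Rad21 had 4 peaks and DP Rad21 11, the merged sites numbered 21, DP-only sites 8 and pre-B-only sites 0, and 26.7% of pre-B CTCF peaks overlapped pre-B Rad21, against 23.2% of the list. Under that limit the pre-B Rad21 peak at the Rag2 start was lost, so that the nearest lay 26933 bp away and 1 library had a peak at that promoter. D3 then had peaks in 0 libraries and ASE 2 DP peaks. At scores of at least 100, pre-B-only sites numbered 1, and the pre-B peak at the Rag2 start was lost as well (26933 bp, 1 library). By midpoint, DP Rad21 lay 53 bp from the Rag1 start and 272 bp from the Rag2 start, and pre-B Rad21 146 bp from the Rag2 start. With the places 2 times as wide, 5 libraries had a peak at the Rag1 promoter, 5 at Erag, where DN Rad21 came in, 3 at D3 and 3 at ASE, and at the narrower width D3 had 0. With 1 mismatch the consensus was found in 13.3% of pre-B CTCF peaks, against 16.1% of the list, so the excess was not kept. In cultured pro-B cells it was found in 11.8%, against 11.7%. With 3 mismatches it was found in 100% of both, against 91.2% of the pre-B list and 84.8% of the culture's. That limit separates little, since 37.3% of sequence 2 kb from the culture's peaks matched too, and a larger share for pre-B. No paired analysis was possible because each condition has 1 library and no test was run. The reads behind each list are unknown, so a missing call was not read as a lack of binding.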
